A study of Mus musculus with 16 samples.

Results

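Malat1 (ENSMUSG00000092341) and Neat1 (ENSMUSG00000092274) are long noncoding RNAs that stay in the cell nucleus. They were followed here in kidney cortex of mice with intact or induced-deleted alleles of the enzyme gene Degs1, after a sham operation or an ischaemic injury. The 2 genes were found by their symbols among 56980 gene identifiers, and both passed the filter on low counts with 17972 genes in all. They had been chosen by their share of the counts per library, with the values of these libraries known. Their levels and the differences between groups are therefore given as a description, with no test.

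The samples came from male C57Bl/6J mice that carried floxed Degs1 alleles, the gene of dihydroceramide desaturase, which makes ceramide from dihydroceramide. Degs1fl/fl littermates (fl/fl) were compared with Degs1iGKO mice (iGKO), in which Rosa26-CreERT2 deletes Degs1 throughout the body after tamoxifen. Both genotypes received 3 mg of tamoxifen on 5 days at 9 weeks of age and were operated on at 12 weeks. The operation was a sham, or a clamp on the vessels of both kidneys for 28 min followed by reperfusion (ischaemia-reperfusion injury, IRI), and the series describes the tissue as taken 24 h afterwards. Each genotype had 4 samples with each operation, which makes 4 groups. A library is named by its group and replicate number, as in fl/fl IRI 4. The RNA was total RNA depleted of ribosomal RNA, a preparation that retains nuclear transcripts and transcripts without a poly(A) tail.

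Malat1 is among the most abundant nuclear RNAs of mammalian cells and gathers at nuclear speckles, bodies rich in splicing factors. Neat1 is the scaffold of a different body, the paraspeckle, which forms on its long isoform as proteins such as NONO and SFPQ bind to it. The shorter Neat1 isoform ends at a poly(A) site and does not suffice to build a paraspeckle. The long Neat1 isoform and Malat1 share an unusual way of ending. RNase P cuts the transcript before a tRNA-like fold, and the new end is protected by a triple helix in which a run of A bases lies between U-rich runs. Neat1 is known to be induced by several kinds of cell stress.

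The ends of the transcripts are shown because they carry this shared feature and because they separate the Neat1 isoforms. They were read from the GENCODE M21 transcripts of the earlier build GRCm38. In the first pair, 100 bases up to the cleavage site, capitals mark the U-rich runs (written with T) and the A-rich run that closes the RNA. The Malat1 stretch spans bases 6592 to 6691 of a transcript of 6983 bases. The Neat1 stretch spans bases 20672 to 20771, the last of the long transcript.
Malat1 end: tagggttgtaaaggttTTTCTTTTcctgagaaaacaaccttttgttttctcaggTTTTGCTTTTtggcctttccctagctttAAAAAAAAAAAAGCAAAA
Neat1 long end: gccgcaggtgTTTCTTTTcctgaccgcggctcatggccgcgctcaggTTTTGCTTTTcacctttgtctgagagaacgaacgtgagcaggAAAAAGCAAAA
Identical runs of 13 bases (tttcttttcctga) and 16 bases (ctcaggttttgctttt) covered the U-rich elements in both. The A-rich run measured 18 bases in Malat1 and 11 in Neat1. G and C made up 32% of the Malat1 stretch and 52% of the Neat1 stretch.

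Directly after the cut in Malat1, at bases 6692 to 6749, lies the 58-base tRNA-like RNA called mascRNA, placed here with the RefSeq gene table. The short Neat1 transcript of 3004 bases ends with the stretch shown next, bases 2945 to 3004, in which capitals mark the poly(A) signal 20 bases from the end.
mascRNA: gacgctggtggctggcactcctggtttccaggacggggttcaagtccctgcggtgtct
Neat1 short end: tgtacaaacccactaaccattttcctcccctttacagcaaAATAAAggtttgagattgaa
Of the long Neat1 transcript, 84.7% lies beyond the short one's end. The deposited counts give 1 value per gene, so the isoforms, and the cut and uncut forms, were not separated in any value below.

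Total counts ranged from 12704273 to 18816343 per library. Degs1 stood at 84.0 to 133 in counts-per-million units (CPM, scaled by TMM) in the 8 fl/fl libraries and at 40.2 to 71.7 in the 8 iGKO libraries, with no overlap. Degs1 reads thus remained in every iGKO library, with means of 57.0 CPM after sham and 54.5 after IRI against 100 and 113 in fl/fl. The counts give 1 value for the whole gene and do not read the deleted part apart from the rest. The proximal tubule list of 10 markers summed to 8586 to 28996 CPM, and Cyp11b1 (adrenal) and Myh4 (muscle) had at most 1 read in any library. These genes do not speak for the other adrenal and muscle markers listed: Star (adrenal) stood at 1.49 to 4.90 CPM in fl/fl sham. The fat marker Plin1 was present and uneven, reaching 91.4 CPM in fl/fl sham and 176 in iGKO IRI. Libraries stood apart in each group. The 8 adrenal, fat and muscle markers summed to 125 CPM in fl/fl sham 3 against 2.27 to 57.7 in the other fl/fl sham libraries, and to 217 CPM in iGKO IRI 3 against 3.64 to 35.3. Fibroblast and mural markers summed to 6486 CPM in iGKO IRI 2 against 943 to 1872 in the other iGKO IRI libraries. Mitochondrially encoded genes took 0.443% of counts in iGKO sham 4 against 6.07% to 6.45% in the other iGKO sham libraries, and 4.43% in fl/fl sham 2, the lowest of its group. The injury marker Havcr1, the kidney injury molecule, stood at 101 CPM in fl/fl IRI 1 against 710 to 1666 in the other fl/fl IRI libraries.

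Malat1 alone took between 1.71% and 4.66% of all gene counts in a library. It was the most counted gene in 15 of 16 libraries, and in iGKO sham 4 it came behind Gpx3, a secreted glutathione peroxidase of the proximal tubule. In fl/fl sham 1 to 4 its share was 2.49%, 2.75%, 2.25% and 2.68%, and iGKO sham 1 to 4 gave 2.61%, 2.49%, 2.32% and 1.71%. After IRI it was 2.68%, 3.28%, 4.15% and 4.66% in fl/fl 1 to 4, and 2.63%, 2.61%, 2.33% and 2.31% in iGKO 1 to 4. Thus 3 of the 4 groups lay in the same range, and fl/fl IRI 2, 3 and 4 lay above every other library. The group means were 2.54% ± 0.222 (SD, n = 4) in fl/fl sham, 2.28% ± 0.399 in iGKO sham, 3.69% ± 0.882 in fl/fl IRI and 2.47% ± 0.175 in iGKO IRI.

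Neat1 took 0.131% to 1.79% of counts, so its lowest and highest libraries were 13.6-fold apart, against 2.73-fold for Malat1. In fl/fl sham 1 to 4 its share was 0.206%, 0.293%, 0.173% and 0.285%, and iGKO sham 1 to 4 gave 0.184%, 0.326%, 0.131% and 0.236%. After IRI it was 0.335%, 0.557%, 0.681% and 1.79% in fl/fl 1 to 4, and 0.182%, 0.311%, 0.390% and 0.183% in iGKO 1 to 4. The library fl/fl IRI 4 stood far above all others, and fl/fl IRI 1 lay between the iGKO IRI libraries. Neat1 was the third most counted gene in fl/fl IRI 4 and ranked 44 in iGKO sham 3, the ends of its range. Its group means were 0.239% ± 0.0592 in fl/fl sham, 0.220% ± 0.0830 in iGKO sham, 0.839% ± 0.646 in fl/fl IRI and 0.266% ± 0.103 in iGKO IRI (SD, n = 4). The means of iGKO sham, fl/fl sham and iGKO IRI were the 3 lowest for both genes. With these groups ranked by mean for each gene, neighbours differed by less than the larger of their SDs. Malat1 stood highest among these 3 in fl/fl sham and Neat1 in iGKO IRI.

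**Figure D1:**
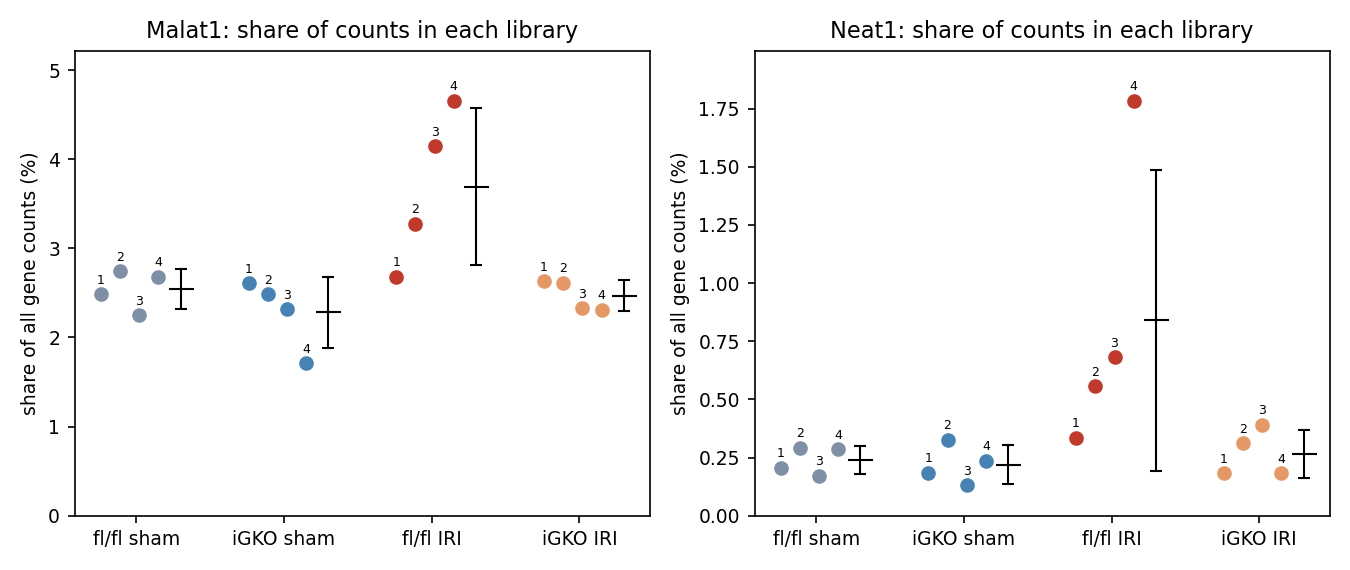
Share of all gene counts (percent) taken by Malat1 (left) and Neat1 (right) in each of the 16 libraries, with replicate numbers at the points and the mean ± SD of 4 libraries beside each group. The axes start at 0 and differ in scale; fl/fl IRI 2, 3 and 4 lie above every other library in both, and fl/fl IRI 4 reaches 4.66% and 1.79%.

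On the CPM scale, whose TMM factors set libraries against each other by the bulk of their genes, the order was similar. Malat1 stood at 26240 ± 2715 CPM in fl/fl sham, 23580 ± 4152 in iGKO sham, 36759 ± 10042 in fl/fl IRI and 23528 ± 1140 in iGKO IRI (SD, n = 4). Neat1 stood at 3308, 5467, 6314 and 19126 CPM in fl/fl IRI 1 to 4, and at 1730 to 3090 CPM in fl/fl sham. All 4 fl/fl IRI libraries thus lay above the highest fl/fl sham library for Neat1. For Malat1, 3 of the 4 did, and fl/fl IRI 1, at 26470 CPM, lay within the sham range of 22565 to 28964 CPM. Genes with no overlap between these groups made up 9.65% of genes tested in the higher direction and 9.82% in the lower direction.

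The fitted difference between IRI and sham in fl/fl was 0.49 ± 0.22 (log2, SE) for Malat1, a 1.40-fold higher level, and 1.79 ± 0.46 for Neat1, a 3.46-fold higher level. Of all genes tested, 82.1% had a lower log2 fold change than Malat1 and 97.9% a lower one than Neat1 in this comparison. A gene is called here when edgeR's quasi-likelihood test gives an adjusted p under 0.05 over all genes. With this rule 2779 genes, 15.5%, were called, 8.46% higher and 7.01% lower. This contrast was part of what chose the members, and nothing is read from these shares. Both differences depended on fl/fl IRI 4, without which they were 0.30 for Malat1 and 1.02 for Neat1, while without fl/fl IRI 1 they were 0.61 and 2.06.

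In iGKO the differences after the same operation were smaller than their SE for both RNAs. Malat1 stood at 22168 to 24810 CPM after IRI and 17515 to 26682 CPM after sham, a fitted difference of -0.00 ± 0.22. Neat1 stood at 1713, 2860, 3719 and 1826 CPM in iGKO IRI 1 to 4 and at 1888, 3378, 1379 and 2421 CPM in iGKO sham 1 to 4, a difference of 0.16 ± 0.44. Without iGKO sham 4 the differences were -0.11 for Malat1 and 0.20 for Neat1, without iGKO IRI 2 they were -0.01 and 0.09, and without iGKO IRI 3 they were 0.02 and -0.09. The groups overlapped for both genes, and 1 of 4 iGKO IRI libraries had more Neat1 than the highest sham library. Over all genes, 2.24% had no overlap with higher levels after IRI and 2.76% with lower levels. In this comparison edgeR called 0 genes (0%), with 1145 at an unadjusted p under 0.05, and DESeq2 called 43.

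Between the genotypes after sham, the log2 differences (iGKO minus fl/fl) were -0.15 ± 0.22 for Malat1 and -0.13 ± 0.44 for Neat1, with overlap for both. No overlap was seen in 1.05% of genes with higher and 0.874% with lower levels in iGKO. Neither edgeR nor DESeq2 called a gene, and 210 genes had an unadjusted p under 0.05 in edgeR. Degs1 itself, the deleted gene, was thus not called after sham, with means of 57.0 CPM in iGKO sham and 100 in fl/fl sham. The comparison after IRI did call Degs1 lower in iGKO (log2 -1.05). That call was lost in 6 of the 16 fits that left out 1 library. After IRI the differences were -0.64 ± 0.22 for Malat1, or 0.640-fold, and -1.76 ± 0.46 for Neat1, or 0.296-fold. All 4 iGKO IRI libraries had less Malat1 than the lowest fl/fl IRI library. For Neat1 the groups overlapped, since iGKO IRI 3 stood above fl/fl IRI 1. Here 3.04% of genes showed no overlap with lower levels in iGKO and 2.48% with higher levels, and edgeR called 153 genes (0.851%), 0.178% higher and 0.673% lower. That split rested on single libraries: without fl/fl IRI 1, 1282 of 2495 called genes were higher, without iGKO IRI 4, 50 of 92 were, and no gene was called without fl/fl sham 4, fl/fl IRI 3 or 4, or iGKO IRI 1, 2 or 3. A share of 0.807% of genes had a lower log2 fold change than Neat1 in this comparison, and 7.98% a lower one than Malat1. Without fl/fl IRI 4 the values were -0.46 for Malat1 and -0.99 for Neat1.

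The difference between the responses of the genotypes (iGKO minus fl/fl) was -0.49 ± 0.31 for Malat1 and -1.63 ± 0.63 for Neat1. It was -0.31 and -0.87 without fl/fl IRI 4. No gene was called for this interaction by edgeR, against 112 by DESeq2 and 2033 at an unadjusted p under 0.05. The comparisons share groups: fl/fl IRI enters the injury response of fl/fl, the genotype comparison after IRI and the interaction, so these values are not separate evidence of one another.

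**Figure D2:**
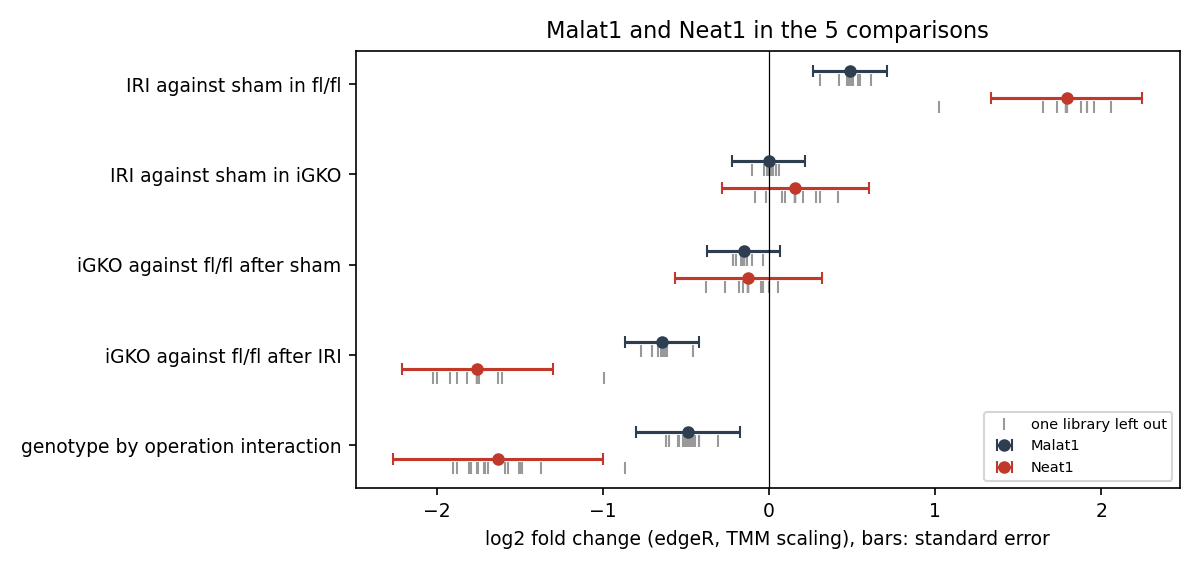
Log2 fold change of Malat1 (dark) and Neat1 (red) in the 5 comparisons, from the edgeR fit with TMM scaling, with bars for the standard error and grey ticks for the value with 1 library left out at a time. The Neat1 values of the 3 comparisons that use fl/fl IRI move furthest, to 1.02, -0.99 and -0.87, when fl/fl IRI 4 is left out.

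Within a library, Neat1 can be read against Malat1 with no scaling between libraries. Per 100 Malat1 counts, fl/fl sham 1 to 4 held 8.30, 10.7, 7.66 and 10.6 Neat1 counts, and iGKO sham 1 to 4 held 7.07, 13.1, 5.66 and 13.8. After IRI there were 12.5, 17.0, 16.4 and 38.3 in fl/fl 1 to 4, and 6.90, 11.9, 16.8 and 7.90 in iGKO 1 to 4. The 4 fl/fl IRI libraries thus lay above all 4 fl/fl sham libraries but overlapped both iGKO groups. Neat1 made up more of the pair in fl/fl IRI even though Malat1 stood higher there as well.

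Counts of the 2 genes differ in part through length, so levels were also divided by the longest transcript of each. Per kb, Malat1 stood at 3758 ± 389 CPM in fl/fl sham and Neat1 at 119 ± 30.6 CPM (SD, n = 4). In fl/fl IRI the values were 5264 ± 1438 and 412 ± 345 CPM per kb. Malat1 exceeded Neat1 per kb by 7.76-fold in fl/fl IRI 4 and by 52.6-fold in iGKO sham 3, with a median of 26.4-fold over the 16 libraries. For Neat1 this value is a lower limit where the short isoform dominates, because the length of the long isoform was used.

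**Figure D3:**
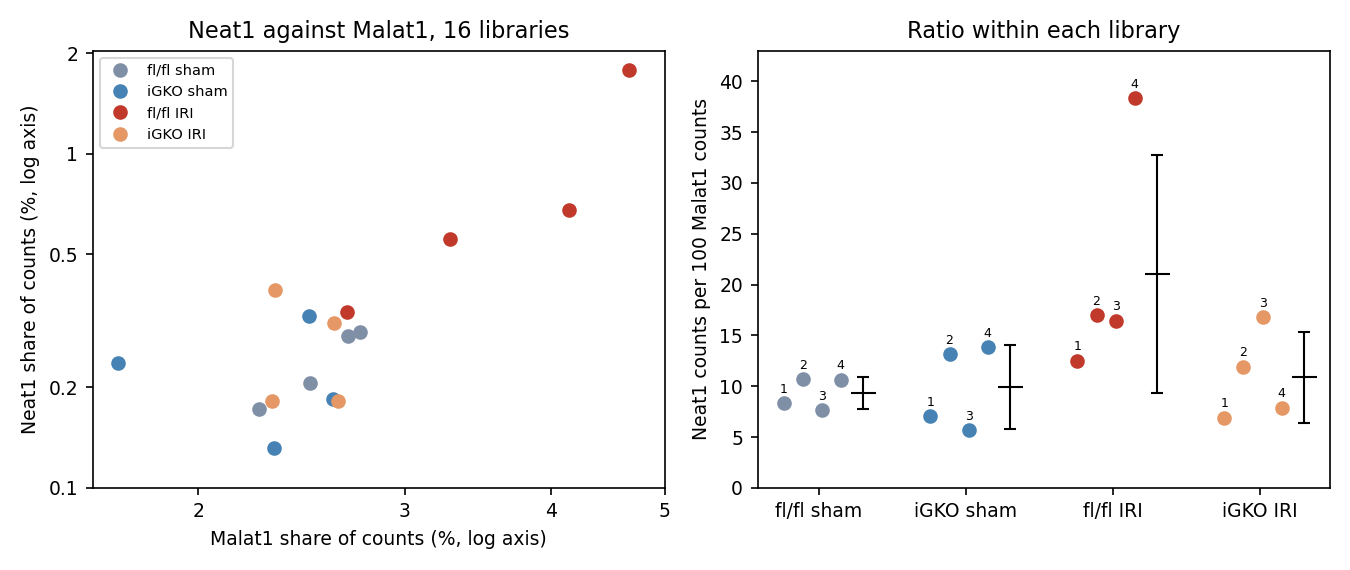
Left: Neat1 share against Malat1 share of counts in the 16 libraries, both on log axes, coloured by group. Right: Neat1 counts per 100 Malat1 counts in each library, with replicate numbers and the mean ± SD of 4 libraries, on an axis from 0; fl/fl IRI 4 stands at 38.3 and the other 15 libraries lie between 5.66 and 17.0.

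The log2 CPM values of the pair correlated over the 16 libraries with Pearson's r = 0.81 and Spearman's rho = 0.56, and r was 0.61 without fl/fl IRI 4. In the 8 sham libraries r was 0.24 and rho 0.43, and in the 8 IRI libraries r was 0.91 and rho 0.69. The 8 IRI libraries pool both genotypes, whose means differed for both RNAs, and include fl/fl IRI 4. For deviations from group means over the 16 libraries r was 0.60. These correlations are a description, and no p is given, because the members were chosen on these libraries and each library lends both values its depth and scaling.

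The pair differed in how much libraries of the same group varied. The SD of log2 CPM within groups was 0.25 for Malat1 and 0.68 for Neat1. The median was 0.35 over the 15978 genes with a mean of at least 1 CPM. These genes were not matched to the pair in level, and counting error widens the SD of genes with few reads. Of these genes 27.5% had a smaller SD than Malat1 and 90.0% a smaller one than Neat1. In iGKO IRI the Malat1 SD was 0.07, undercut by 4.26% of genes, and in iGKO sham it was 0.28, or 0.07 without iGKO sham 4. The Neat1 SD of 1.07 in fl/fl IRI exceeded that of 93.6% of genes but rested on fl/fl IRI 4. Without that library, a setting chosen after seeing the data, it was 0.49, below the 0.55 of iGKO sham and the 0.53 of iGKO IRI, and exceeded that of 74.5% of genes.

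Among the 9899 genes annotated as long noncoding RNAs, Malat1 and Neat1 together held 72.4% to 90.0% of the counts of the class in a library. They held 77.9% ± 2.24 in fl/fl sham, 76.5% ± 3.01 in iGKO sham, 85.6% ± 4.31 in fl/fl IRI and 77.9% ± 0.580 in iGKO IRI (SD, n = 4). The rest of the class took 0.783% ± 0.0342 of all counts in fl/fl sham and 0.707% ± 0.0342 in fl/fl IRI. In fl/fl IRI the share of the pair was thus higher and that of the rest lower, as parts of the same total. Of 1384 other long noncoding RNA genes tested in fl/fl, 53 rose and 120 fell after IRI, against 8.46% higher and 7.01% lower over all genes, with a median log2 fold change of -0.20 against 0.01 over all genes tested. None was called in iGKO, where no gene of any class was.

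The proteins that build paraspeckles on Neat1 were described through 20 genes, all tested. In fl/fl, 2 of the 20 rose after IRI and none fell, against 8.46% of all genes called higher, with a median log2 fold change of 0.23. Those that rose were Hnrnpa1 and Hnrnpf, both heterogeneous nuclear ribonucleoproteins that bind RNA during splicing. Hnrnpa1 stood at 163 ± 36.9 CPM in fl/fl IRI against 95.1 ± 7.56 in fl/fl sham (log2 0.78 ± 0.16, adjusted p = 0.00480), and Hnrnpf at 131 ± 34.4 against 87.5 ± 7.82 (0.58 ± 0.17, adjusted p = 0.0294). The core proteins did not pass: Sfpq gave 0.43 ± 0.18 (adjusted p = 0.110) and Nono 0.23 ± 0.13 (adjusted p = 0.231), with both named for their role. Hnrnpf lost its call without fl/fl sham 2, 3 or 4 or without fl/fl IRI 3 or 4, with adjusted p of 0.0667 to 0.0907. In iGKO no paraspeckle gene was called, where 0% of all genes were, and the median was 0.00. After IRI none was called between genotypes, against 0.851% of all genes, with a median of -0.20.

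Nuclear speckle and SR proteins, the splicing factors around Malat1, gave 1 call among 23 of 24 listed genes tested in fl/fl after IRI, against 15.5% of all genes called. This was Srsf7, at 59.5 ± 6.85 CPM in fl/fl IRI against 41.7 ± 6.45 in fl/fl sham (0.51 ± 0.16, adjusted p = 0.0434), and the median was 0.13. The Srsf7 call was lost in 10 of the 16 fits that left out 1 library: any fl/fl sham library, fl/fl IRI 3 or 4, iGKO sham 2 or 3, and iGKO IRI 2 or 3 (adjusted p 0.0529 to 0.135). A list of 19 genes held the subunits of RNase P, the RNase Z gene Elac2, the triple-helix binding gene Mettl16, and writers and a reader of the RNA mark m6A. It gave no call, against the same 15.5%, with a median of 0.18. Closest were Rpp38 at 0.67 ± 0.25 (adjusted p = 0.0800) and Rpp30 at 0.58 ± 0.24 (adjusted p = 0.110), protein subunits of RNase P. DESeq2 called Rpp38, and so did edgeR without fl/fl IRI 1 (adjusted p = 0.0255). Neither list held a call in iGKO, against 0% of all genes, with medians of 0.08 and 0.02. Nor did either hold one between genotypes after IRI, against 0.851% of all genes, with medians of -0.15 and -0.11.

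**Figure D4:**
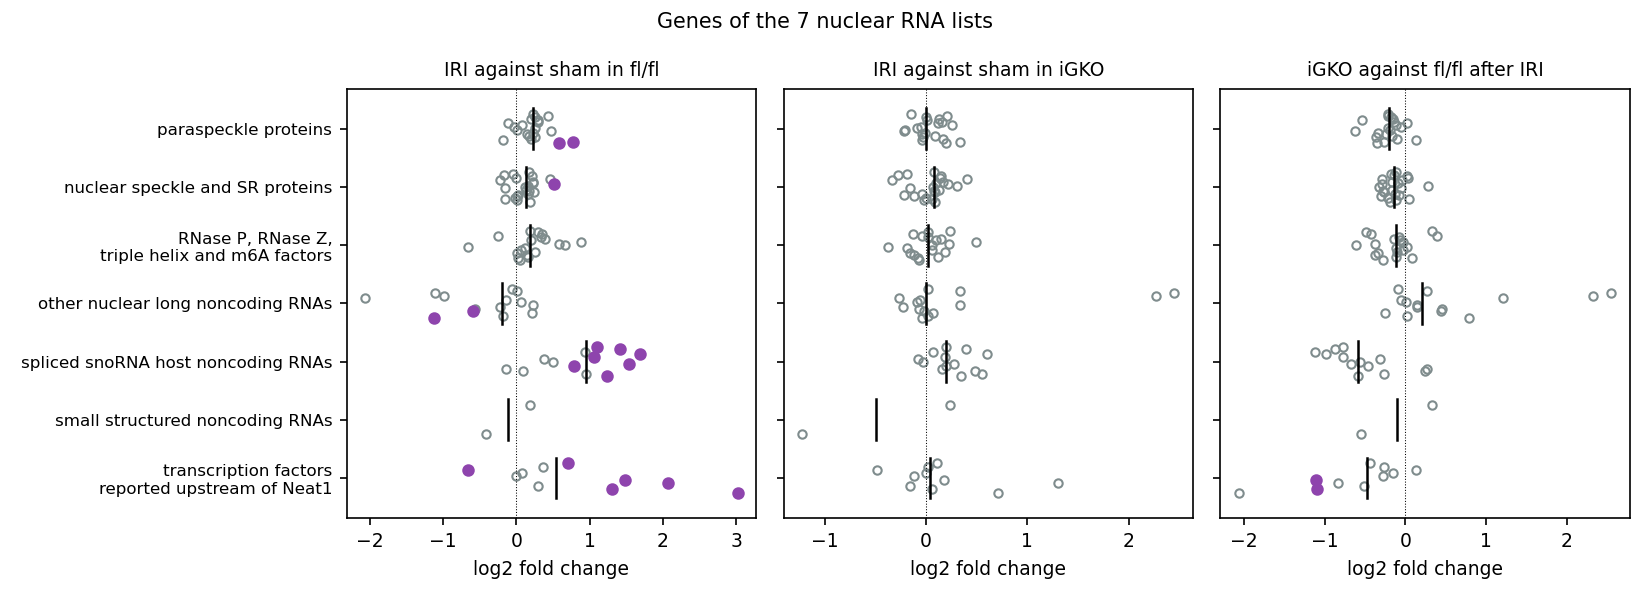
Log2 fold changes of the tested genes of 7 lists on nuclear RNA in 3 comparisons, each on its own axis, with filled purple points for genes called by edgeR (adjusted p under 0.05), open points for the others and a bar for the list's median. In fl/fl the list of snoRNA host genes, which leaves out Snhg11, has a median of 0.95 and 7 calls. No gene of any list is called in iGKO, where 0% of all genes are.

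Among 14 other nuclear long noncoding RNAs tested of 15 listed, none rose in fl/fl after IRI and 2 fell, against 8.46% and 7.01% of all genes, with a median of -0.20. Mir99ahg, a microRNA host, stood at 11.5 ± 3.43 CPM against 25.0 ± 2.35 in fl/fl sham (-1.12 ± 0.29, adjusted p = 0.0165), and Snhg11 at 51.9 ± 7.55 against 78.4 ± 16.7 (-0.60 ± 0.18, adjusted p = 0.0324). Snhg11 lost its call without fl/fl sham 1 or 3 or fl/fl IRI 3, with adjusted p of 0.0629 to 0.124. The imprinted Kcnq1ot1, like Malat1 an abundant RNA that stays at chromatin, stood at 203 ± 18.7 and 195 ± 20.6 CPM in fl/fl sham and fl/fl IRI (-0.06 ± 0.17, adjusted p = 0.848) and did not pass. No gene of the list was called in iGKO, against 0% of all genes, with a median of -0.00. Between genotypes after IRI none was called either, against 0.851% of all genes, with a median of 0.20.

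The list of spliced noncoding genes that host small nucleolar RNAs had the highest median of the 7 lists in fl/fl. Of its 13 genes 7 rose after IRI and none fell, with a median of 0.95, against 8.46% of all genes called higher. Snhg11, by its name also such a host gene, was placed in the list of other nuclear RNAs and fell (-0.60). That none fell thus holds for this list and not for all host genes. Snhg15 stood at 13.5 ± 4.02 CPM in fl/fl IRI and 4.68 ± 0.913 in fl/fl sham (1.53 ± 0.26, adjusted p = 0.00198), and Gas5 at 50.5 ± 15.8 and 23.6 ± 1.53 (1.10 ± 0.21, adjusted p = 0.00421). Zfas1 gave 1.23 ± 0.27 (adjusted p = 0.00707) and Snhg5 1.69 ± 0.42 (adjusted p = 0.0134). Snhg1, Snhg6 and Snhg17 also rose. The summed level of the list was 178, 189, 227 and 337 CPM in fl/fl IRI 1 to 4, so within the group it was highest in the library with the most Malat1 and Neat1 and lowest in the one with the least. Without fl/fl IRI 4, 4 of 13 were called, and without fl/fl IRI 1, 9. In iGKO none was called, where 0% of all genes were, with a median of 0.20. There the list summed to 166, 146, 164 and 171 CPM in iGKO IRI 1 to 4. It was highest in iGKO IRI 4, which was highest for neither Malat1 nor Neat1. After IRI the median difference between genotypes was -0.59 with no call, against 0.851% of all genes. Of 12 small structured RNAs 2 were tested. Neither was called in any comparison, against at most 15.5% of all genes. Rpph1, the RNA of RNase P, gave 0.18 ± 0.38 (adjusted p = 0.791) and Rny3, a Y RNA, -0.42 ± 0.39 (adjusted p = 0.510) in fl/fl, and the sign of Rpph1 turned without fl/fl IRI 1 (-0.044).

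Of 10 genes for transcription factors reported upstream of Neat1, 5 rose and 1 fell in fl/fl after IRI, with a median of 0.54, against 8.46% and 7.01% of all genes. Stat3, which carries cytokine signals, stood at 357 ± 180 CPM in fl/fl IRI and 127 ± 22.2 in fl/fl sham (1.49 ± 0.26, adjusted p = 0.00218). Egr1, an immediate early gene, stood at 48.3 ± 40.2 and 5.95 ± 2.53 CPM (3.02 ± 0.56, adjusted p = 0.00338). Rela, a subunit of NF-kB, gave 1.31 ± 0.25 (adjusted p = 0.00395), and Runx1 2.07 ± 0.43 (adjusted p = 0.00611). Trp53, the gene of p53, also rose, and Epas1, the gene of HIF-2 alpha, fell. In iGKO none of the 10 was called, where 0% of all genes were, with a median of 0.04, and Runx1 gave 1.30 ± 0.43 (adjusted p = 0.629). After IRI Stat3 (-1.11 ± 0.25) and Rela (-1.10 ± 0.25) were lower in iGKO than in fl/fl, against 0.673% of all genes called lower. Both had an adjusted p of 0.04996 in edgeR's quasi-likelihood test, just under the threshold. The median of the list was -0.48. Both calls were lost in 14 of the 16 fits that left out 1 library, with adjusted p up to 0.168 for Stat3 and 0.163 for Rela without iGKO IRI 3. They remained called without fl/fl IRI 1 and without iGKO sham 4. The list's summed level in fl/fl IRI 1 to 4 was 758, 1091, 1029 and 1651 CPM, again highest in fl/fl IRI 4 and lowest in fl/fl IRI 1. In iGKO IRI 1 to 4 it was 859, 825, 778 and 637 CPM and did not follow Neat1. Neat1 was lowest in iGKO IRI 1 and highest in iGKO IRI 3.

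Malat1 and Neat1 are neighbours on the same chromosome. Of the 8 nearest tested genes, 4 on each side, edgeR called 1 in fl/fl after IRI, where 15.5% of all genes were called, and none in the other 4 comparisons. A single call of 8 is near that background. Of the other 4 comparisons, 0.851% of all genes were called between genotypes after IRI and 0% in the rest. The gene called was Frmd8, next to Neat1, which rose by 0.72 ± 0.23 (adjusted p = 0.0413). That call was lost in 8 of the 16 fits with a library left out: fl/fl sham 1, 3 or 4, fl/fl IRI 3 or 4, iGKO sham 2, and iGKO IRI 2 or 3 (adjusted p 0.0503 to 0.124). On the Malat1 side Ltbp3 gave -0.49 ± 0.28 (adjusted p = 0.236). Slc25a45 gave -0.19 ± 0.17, Dpf2 0.15 ± 0.12, Tigd3 0.35 ± 0.43, Znrd2 0.81 ± 0.34 and Fam89b 0.68 ± 0.36, and none of these passed. The last 3 have mean levels of 1.26 to 1.77 CPM.

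**Figure D5:**
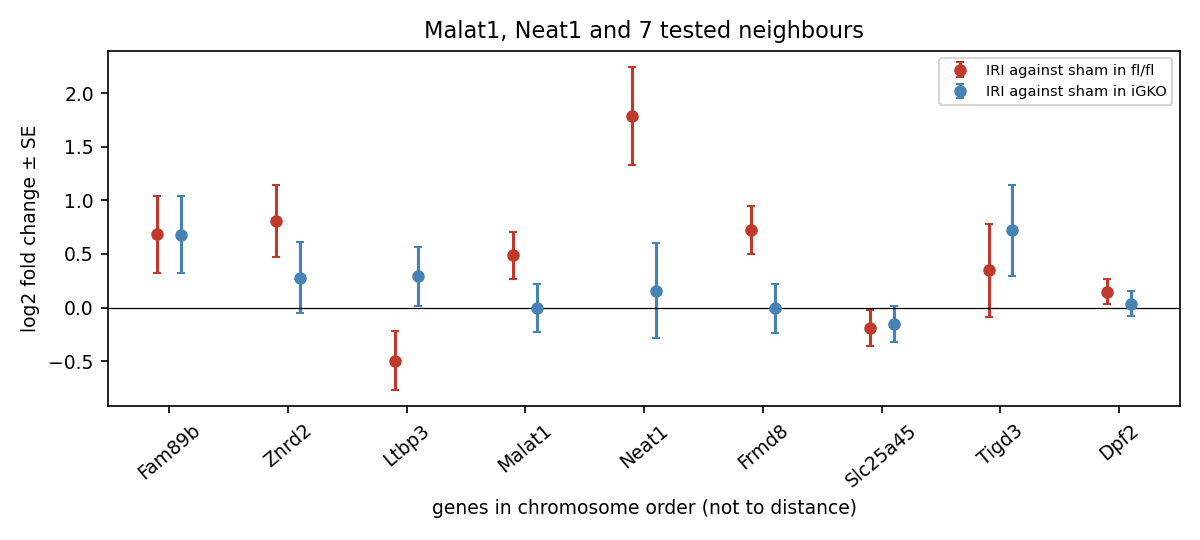
Log2 fold change ± SE of IRI against sham in fl/fl (red) and iGKO (blue) for Malat1, Neat1 and 7 nearby tested genes, in chromosome order and not to distance. In fl/fl Neat1 stands at 1.79 and Frmd8 at 0.72, the only neighbour called by edgeR, while Dpf2 stands at 0.15.

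Genes with the most similar pattern were ranked by Pearson's r of log2 CPM over the 16 libraries among 15657 genes, as a description. Closest to Malat1 was Tbce, a tubulin folding cofactor, with r = 0.97. It was followed by Map3k2, Napg, Cep83, Crem, Ptpn12, Tead1, Suco, Rock2 and Prkx, down to r = 0.94. Tbce stood at 30.1, 36.2, 40.6 and 52.4 CPM in fl/fl IRI 1 to 4 and at 19.2 CPM in iGKO sham 4, so it followed Malat1 at both ends of its range. Its r was 0.93 without fl/fl IRI 4 and 0.92 when the deviations from group means were compared. Closest to Neat1 was Uspl1, a SUMO isopeptidase, with r = 0.95, then Trib1, Ubp1, Eid3, Plxna2, Csnk1e, Trip10, Chac1, Btg2 and Map3k3, down to r = 0.93. Uspl1 stood at 38.0, 44.8, 44.6 and 61.8 CPM in fl/fl IRI 1 to 4, and its r was 0.89 without fl/fl IRI 4. No gene was in both groups of 10. The genes were ranked on these same libraries, so the values given for Tbce and Uspl1 are not separate evidence of likeness.

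Markers of injury and of cell types moved with the operation in the same libraries, and their part in the levels of Malat1 and Neat1 was not tested. All 9 tubular injury markers rose in fl/fl after IRI, against 8.46% of all genes called higher, with a median of 3.29. Between genotypes after IRI 6 of 9 were lower in iGKO than in fl/fl, against 0.673% of all genes. All 6 calls were lost with the replicate block (a term for the replicate number), with only the compared groups, and without fl/fl sham 4, fl/fl IRI 3 or 4, or iGKO IRI 1, 2 or 3, while 8 were called without fl/fl IRI 1. Their summed level was 3702, 11266, 15493 and 9559 CPM in fl/fl IRI 1 to 4, so fl/fl IRI 1 was lowest for injury markers as for both RNAs, but fl/fl IRI 3 and not fl/fl IRI 4 was highest. In fl/fl 6 of 10 proximal tubule markers fell, against 7.01% of all genes called lower. Their sum was 20284, 12086, 8586 and 15123 CPM in fl/fl IRI 1 to 4 against 24280 to 28996 CPM in fl/fl sham. Of 5 thick ascending limb markers 3 fell in fl/fl, against the same 7.01%, with a median of -1.25. Their sum was 830 to 2778 CPM after IRI against 3847 to 4446 after sham. Of 9 leukocyte markers 7 were tested, and 2 rose in fl/fl, against 8.46% of all genes called higher. The list summed to 74.5 to 211 CPM in fl/fl IRI and 77.8 to 118 in fl/fl sham, with the lowest value in fl/fl IRI 4. Ly6g, a neutrophil marker, had 0 reads in fl/fl sham. In iGKO after IRI no marker of these lists was called, where 0% of all genes were. The 10 proximal tubule markers all had negative values in iGKO, with a median of -0.45. They summed to 16026 to 20712 CPM after IRI against 21839 to 27789 after sham. The thick ascending limb median was -0.23, with 2 of 5 values positive. For the injury markers it was 0.55 in iGKO, with 8 of 9 positive. The 7 leukocyte markers all had positive values there, with a median of 0.97, and summed to 99.1 to 214 CPM against 69.7 to 102 after sham. The 6 fibroblast and mural markers also all had positive values in iGKO, with a median of 1.18, and their median between genotypes after IRI was 1.39 (iGKO minus fl/fl), with iGKO IRI 2 far above the rest as given above. In fl/fl their median was 0.20. In bulk tissue, fewer cells of a type and less RNA per cell cannot be told apart.

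The mitochondrial share was set against the members because it marks libraries that stand apart. Member levels were taken here as a share of the counts outside mitochondrial genes. These correlations are a description with no p, since the members were chosen on their shares of counts. In the 8 IRI libraries Malat1 gave r = 0.72 and rho = 0.79, and without iGKO IRI 4 and fl/fl IRI 1, the farthest from the median share, r was 0.68. In the 8 sham libraries r was 0.76 and rho -0.17. That r rested on iGKO sham 4, since without this library and fl/fl sham 2 it turned to -0.60. Over all 16 libraries Malat1 gave r = 0.29 and rho = 0.20, and r was -0.10 without iGKO sham 4 and iGKO IRI 4. Neat1 gave r of -0.01, -0.10 and 0.43 in all, sham and IRI libraries, with rho of -0.24, -0.45 and 0.71.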

How the data were processed

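RNA was measured in 16 kidney cortex samples. The deposited values are raw read counts per gene as whole numbers, without normalization. Per the submitters' processing notes, the tools were STAR 2.7.9a, featureCounts 1.6.3, cutadapt 1.16, DESeq2 1.36.0, MultiQC, Picard and FastQC, with build GRCm39. Which annotation release and which strand setting they used is not given in the sources used here, so reads of overlapping antisense genes may be included. Transcripts came from GENCODE M21, an earlier build, and no coordinates are printed. Some listed genes are not reported here by name.

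Genes were kept by filterByExpr by group (17972), scaled by TMM and fitted with edgeR 4.0.16 in R 4.3.3, by its quasi-likelihood method with a term for each group over all 16 libraries, which then share 1 estimate of the spread. Tests were two-sided with Benjamini-Hochberg adjustment over all genes and a threshold of 0.05. SE is the log2 fold change divided by the root of F. The script was tested on simulated data. The labels give separate samples and do not name the animals, so p-values measure the spread between these samples, which may be technical.

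The members and the 19 lists were chosen with earlier results of these data known. Up to 4 called genes of a list with the smallest p were named, or the 2 with the smallest p where none was called in fl/fl after IRI. Added for their role, after their values were seen, were Sfpq, Nono, Kcnq1ot1 and the remaining called genes Snhg1, Snhg6, Snhg17, Trp53 and Epas1. Exact 95% binomial intervals of a library's share, which cover counting error only, reached at most 0.381% of the share for Malat1 and 1.29% for Neat1 on either side. Correlations of the members with the mitochondrial share had been planned with permutation p-values, which are not printed because the members were chosen on the same shares. Alternatives were other scalings, no filter, DESeq2 1.42.0, the replicate number as a block, the compared groups alone and each library left out. No library looked like a copy of another: the smallest chi-square per degree of freedom between replicates was 8.20.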

Additional observations from a re-analysis of the deposited data

Results flagged for a closer look

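The mitochondrial share was examined in the 4 groups of 4 libraries for a library whose gap to the next, as a share of the group's range, exceeded Dixon's 95% critical value for 4 samples. In 2 of the 4 groups a library stood out, and chance flags about 1 in 20 groups. The shares were 4.43% in fl/fl sham 2 and 0.443% in iGKO sham 4, each the lowest of its group. In iGKO sham 4 Malat1 was the lowest of all libraries at 1.71% of counts, and Neat1, at 0.236%, lay within its group. In fl/fl sham 2 both RNAs had the highest share of their group, 2.75% and 0.293%. Whether the mitochondrial share has a part in these levels was not tested.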

How the results depend on the processing

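Malat1 and Neat1 kept the sign of their differences under every alternative run for the fl/fl injury response, the genotype comparison after IRI and the interaction, and Malat1 also after sham. In iGKO after IRI the sign of Malat1 held in 12 of 23 alternatives and that of Neat1 in 21. Leaving out 1 library at a time moved the Neat1 interaction between -1.90 and -0.87. Genes called in fl/fl after IRI were 1526 with only the compared groups and 1452 to 4335 with a library left out (most without fl/fl IRI 1). In iGKO 4 were called without a filter, 43 with DESeq2 and 0 to 1 with a library left out. Between genotypes after IRI the count was 85 by total counts, 97 without mitochondrial genes, 352 without a filter, 942 with DESeq2, 0 with only the compared groups and 0 to 2495 with a library left out. With DESeq2 408 of the 942 were higher in iGKO. For the interaction it was 15 without a filter, 112 with DESeq2 and 0 to 776 with a library left out. Lists in fl/fl after IRI gave 1 to 3 paraspeckle calls, 0 to 2 speckle calls (2 by total counts, without mitochondrial genes and with DESeq2, 0 without a filter), 0 to 1 RNase P calls (1 with DESeq2), 1 to 3 other nuclear RNAs and 4 to 9 snoRNA hosts. With only the compared groups there were 1 paraspeckle and 0 speckle calls. The factors upstream of Neat1 gave 0 calls after IRI under the other scalings and with only the compared groups, and 0 to 4 with a library left out. The injury markers called between genotypes after IRI were 3 by total counts and 3 without mitochondrial genes, 0 with only the compared groups and with the replicate block, and 0 to 8 with a library left out. Same-numbered libraries deviated together (r over 0.1) in 6 of 24 pairs, with r from -0.33 to 0.40. Differently numbered libraries were not compared, so this does not decide whether the numbers pair the samples. With the replicate block, 0 genes were called between genotypes after IRI, 1 for the interaction, and in the lists 1 paraspeckle, 0 speckle, 1 other nuclear RNA and 0 factors after IRI. The r of Malat1 with the mitochondrial share turned to -0.0951 in all libraries and -0.599 in sham libraries without the 2 farthest, and Rpph1 to -0.0444 without fl/fl IRI 1, in a range up to 0.360. The cause of these moves was not tested. At 12704273 or more counts per library, counting error is small for both RNAs, and the spread between 4 libraries sets the precision.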
